A study of Bos taurus with 12 samples.

Results

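The corpus luteum of the cyclic cow was profiled in 4 of the 12 samples of the series, chosen by their title alone as day 15 of the estrous cycle (NP15), and all 4 are described here. Each sample was the luteal tissue of a different Japanese Black cow, a Japanese beef breed, taken 10 to 30 min after exsanguination. The study counted insemination as day 1, and the sources used here do not say how the day was set in a cow that was not pregnant. The remaining samples, luteal tissue of the same breed on days 15 and 18 of gestation, enter no value below. RNA of each cow was hybridised to its own 1-colour array, and the arrays are named replicates 1 to 4 as their titles number them. No groups were compared, and no test between samples is reported. Whole tissue was used, so fewer cells of a type and less RNA per cell cannot be told apart.

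The corpus luteum is the gland that forms from the follicle after ovulation and secretes progesterone. Its large and small steroidogenic cells take up cholesterol, pass it to the inner mitochondrial membrane and convert it in successive steps to progesterone, while a dense capillary bed, fibroblasts, pericytes and resident immune cells surround them. In the cow it also makes oxytocin, and without a pregnancy it is broken down late in the cycle when the uterus releases prostaglandin F2 alpha.

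Each value is the log2 of a probe's processed signal minus the 75th percentile of that array, so 0 stands for a probe at that percentile and each unit is a doubling. A probe counted as measured when it was well above background on all 4 arrays, which 11896 of 15208 probes (78.2%) were. Measured probes were split by their mean into 3 bands of equal size: bright (above -0.13), middle, and dim (below -3.29). Another 1907 probes (12.5%) were at background on all 4 arrays and 1405 (9.24%) were above it on 1 to 3 arrays. The probes that could be named stood for 6735 genes, with the brightest probe standing for its gene. Of these genes 2267 (33.7%) were bright, 1781 (26.4%) middle, 1618 (24%) dim and 563 (8.36%) at background on every array, and the median of the 5666 measured genes was -1.0.

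The labelled tissue was checked against 4 markers of steroidogenic luteal tissue, and all 4 lay in the bright band on all 4 arrays. HSD3B1, the enzyme that makes progesterone from pregnenolone, saturated the scanner on all 4 arrays, so its level has only a lower bound. CYP11A1, which cuts the cholesterol side chain to give pregnenolone, gave 6.26, 6.35, 6.49 and 6.52 on replicates 1 to 4 (mean 6.41 ± 0.12, SD, n = 4). ITGB5, an integrin subunit, gave 5.09, 5.17, 5.28 and 5.43. SCARB1, the receptor for high density lipoprotein, gave 4.14, 4.01, 4.00 and 4.31. The cows lay close together in these 3 genes, with SDs of 0.12, 0.14 and 0.15.

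A value depends on the probe as well as on the gene, and the probes below show how. All are printed 5′ to 3′ as the array's design gives them, with the letters AATAAA, the common polyadenylation signal, in capitals. Of 3 different GAPDH probes, the first gave 4.14 ± 0.15, the last 0.07 ± 0.25, and the middle one was printed on 100 spots that are used below to read the slide:
GAPDH ABR336: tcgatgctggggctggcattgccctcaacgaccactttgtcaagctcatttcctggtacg
GAPDH repeated on 100 spots: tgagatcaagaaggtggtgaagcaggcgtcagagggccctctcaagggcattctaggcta
GAPDH ABR7083, last 30 bases: gagccgcaccttgtcatgtaccatcaataa
The markers were read by these probes, of which the last 30 bases are shown:
HSD3B1: taacttcgagttttgcctcttagtcccact
CYP11A1: atgaagctggcactcaggggtcagctgctt
SCARB1: aaataattcacaattgaagtAATAAAcctt
ITGB5: tgatcatgtttgtatgaAATAAAatgatcg
PPARD, a fatty acid sensing nuclear receptor and 1 of the 2 genes in the study's title, had 2 probes that lay in the same dim range:
PPARD ABR1869: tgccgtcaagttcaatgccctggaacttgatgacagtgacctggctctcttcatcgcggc
PPARD A_73_119402, bases 7 to 36: gatggaactttaAATAAAtgggaattaaat
The COX6A1 probes overlapped by 36 bases, yet the first was 2.34 brighter on the log2 scale (5.07-fold):
COX6A1 ABR1603, last 30 bases: ccctttgcttatagcaggaagagatggctt
COX6A1 ABR1228, last 30 bases: tggcttaAATAAAtaatttagtcatgacct
The last pair read the major histocompatibility genes that differed most between the cows:
BOLA-DQA5, last 30 bases: gtatctatggaagcAATAAAtctctttatg
BOLA-DQB, last 30 bases: tgaaaccatttgcctggctatagaattttt

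Over 149 genes with at least 2 measured probes of different sequence, the median gap between a gene's probes was 2.34 and only 71 genes (47.7%) had all their probes in one band. The bands therefore describe the signal of a probe and do not rank genes by amount of RNA. The letters AATAAA stood on 18.8% of the bright probes, 11.5% of the middle, 7.26% of the dim and 7.71% of the background probes, against 11.3% of all probes. On the opposite strand (TTTATT) the shares were 4.56%, 4.36%, 3.71% and 3.88%, and 4.14% over all probes. The searches could overlap one another on a probe and say nothing about where a transcript ends.

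The 4 arrays were alike in depth but not in evenness. Their 75th percentiles were 3481, 4183, 3361 and 2868 units of signal, and 83.7%, 85.6%, 84.3% and 79.6% of probes were well above background. Across measured probes, replicates 1 to 3 correlated with one another at r = 0.990 to 0.991 and with replicate 4 at 0.963 to 0.967, or 0.982 to 0.986 outside the patch described next. On replicate 4, 558 probes (3.67%) deviated by over 2 on the log2 scale from the average of the remaining arrays, against 57, 78 and 83 on replicates 1 to 3. Of those 558 probes, 468 were low, and 416 of the low ones sat in a single oval patch of the slide.

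That dark patch held 2069 probes (13.6%), most of them between rows 74 and 148 and columns 26 and 50 of the 192 rows and 82 columns. Its 1495 measured probes were lower on replicate 4 by a median of 1.22 and by up to 5.82, while measured probes outside it were higher there by a median of 0.21. That shift was not even, since local medians outside the patch ranged from -0.71 to 0.59 on replicate 4. The local background was 65.5 units inside the patch and 64.0 outside it, so the patch was dark in signal and not raised in background. Of 548 probes above background on replicates 1 to 3 and not on replicate 4, 224 lay in the patch. A second, smaller dark strip, noticed on the map, ran along the right edge of replicate 4, where 45 probes of column 82 in rows 7 to 72 had a median deviation of -1.55. Outside both areas 58 of 10252 measured probes (0.566%) on replicate 4 lay over 2 units from the other arrays, 46 of them high and 12 low.

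**Figure D1:**
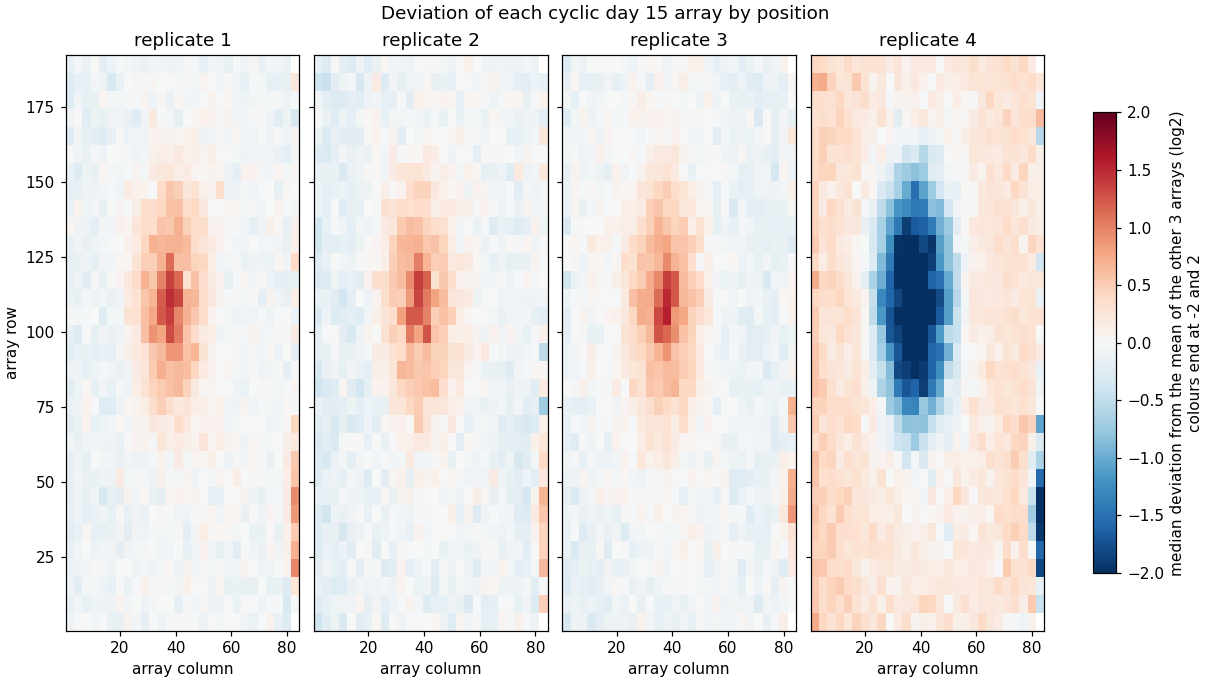
Median deviation of each NP15 array from the mean of the other 3 (log2, colour scale ending at -2 and 2), in blocks of spots laid out by array row and column. The dark oval of replicate 4 appears as a pale red mirror image on the other maps because each is set against a mean that holds replicate 4, and blue blocks at the right edge of replicate 4 mark the second strip.

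The GAPDH sequence printed on 100 spots allowed the patch to be read with 1 transcript. On the 82 spots outside it, the medians were 1.68, 1.68, 1.65 and 1.59 on replicates 1 to 4, with SDs of 0.14, 0.16, 0.16 and 0.13. On the 18 spots inside it, replicates 1 to 3 gave medians of 1.96, 1.95 and 1.95, whereas replicate 4 gave 0.93 and ranged from -0.27 to 1.44. The same transcript was thus read near the other arrays' level on most of replicate 4 and below it in the patch. Genes whose spot lay in the patch are marked as such below. Their means and SDs are over all 4 arrays unless replicates 1 to 3 are named, so they include the defect.

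The brightest genes were those of steroid synthesis, the ribosome, the cytoskeleton and the matrix. STAR, the protein that delivers cholesterol to the inner mitochondrial membrane, HSD3B1, and TIMP2, an inhibitor of matrix metalloproteinases, were saturated on all 4 arrays. APOA1, the main protein of high density lipoprotein, was saturated on 2 arrays, with its spot in the patch. Below this ceiling followed RPL27A (7.08), TMSB4X (7.01, saturated on 1 array), MGP (7.0), an inhibitor of calcification in matrix, RPS14 (6.92), ACTB (6.81), CTSF (6.71, in the patch) and FTH1 (6.63), the iron storing heavy chain of ferritin. A class I histocompatibility probe (BOLA, 6.61, saturated on 1 array), RPLP2 (6.54), RPS10 (6.44), CYP11A1, RPS28 (6.40), SPARC (6.39), HMGCS1 (6.31), COX6A1 (6.27) and OXT (6.21) came next. The set of the 25 brightest closed with EEF2 (6.2), RPL7A (6.15, in the patch), RPL8 (6.12), GNAS (6.05), the stimulatory G protein that couples luteinizing hormone receptors to cyclic AMP, and RPL27 (5.89).

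Of 19 steroidogenic genes on the array, 18 were measured and 11 were bright, with a median of 2.49 against -1.0 over all measured genes. FDXR and FDX1, which pass electrons to CYP11A1, were both bright: FDXR gave 5.42, 5.66, 5.69 and 5.07 and FDX1 gave 3.77, 3.47, 4.13 and 4.32. NR5A2, a nuclear receptor that drives steroidogenic genes, was bright at 2.54 ± 0.33, and its relative NR5A1 was in the middle band at -2.46 ± 0.47. TSPO, a cholesterol binding protein of the outer mitochondrial membrane, gave 2.33, 2.39, 2.37 and 3.03, with replicate 4 highest.

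The genes for steroids other than progesterone were dimmer. CYP17A1, needed for androgens, gave -3.19, -2.84, -2.93 and -3.26 (mean -3.06 ± 0.20). CYP19A1, the aromatase that makes estrogens, gave -3.33, -4.11, -4.20 and -3.33 (mean -3.74 ± 0.48) and was dim on all 4 arrays. SULT1E1, which inactivates estrogens, was at background on all 4. HSD11B2 and HSD11B1, which inactivate and regenerate glucocorticoids, were in the middle band at -1.01 ± 0.71 and -2.96 ± 0.56.

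CYP21A2, the 21-hydroxylase named in the study's title, varied most of the steroidogenic genes. Its values were -1.67, -3.00, 0.39 and -2.95 on replicates 1 to 4 (SD 1.59, and 1.71 without replicate 4). The cow of replicate 3 was highest, 10.5-fold over that of replicate 2, the lowest. Replicate 1 lay in between, and replicates 2 and 4 lay side by side. PPARD varied less than CYP21A2, at -7.03, -7.12, -6.91 and -5.91 on one probe and -7.12, -7.57, -7.71 and -6.34 on the other. Replicate 4 was highest on both. Over all 4 arrays the PPARD SDs were 0.56 and 0.62, above the dim band's median of 0.30. Over replicates 1 to 3 they were 0.11 and 0.31, against a median of 0.22. The 2 PPARD probes were among the dimmest of those measured, close to the lowest value well above background on each array (-8.09 to -7.34, highest on replicate 4). In the blocks of spots around them, replicate 4 lay above the other arrays by medians of 0.44 and 0.33. The part of slide position in the PPARD values was not tested.

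**Figure D2:**
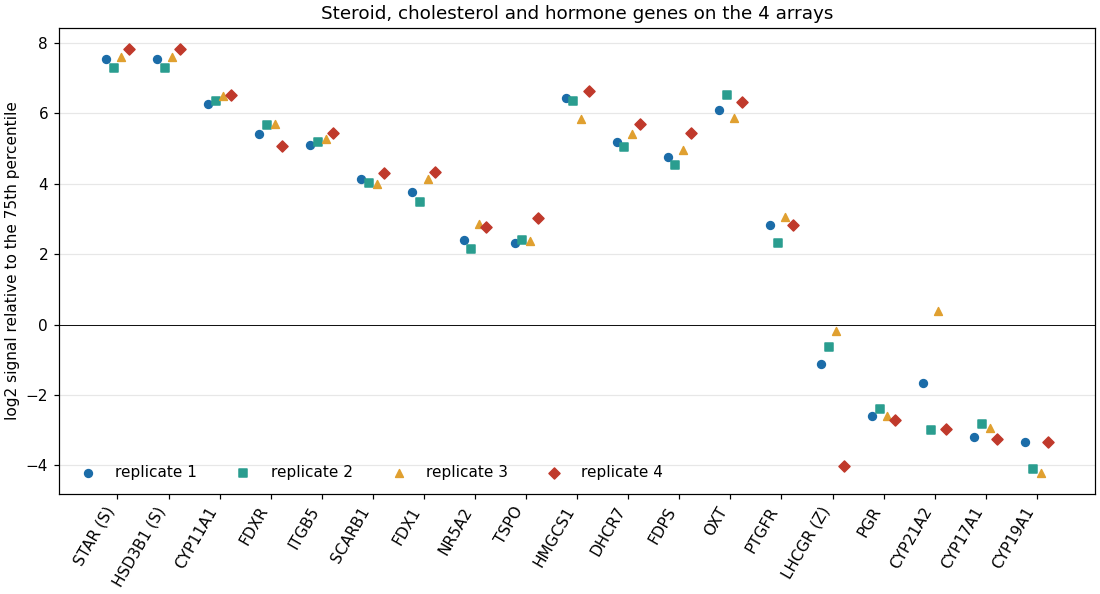
Log2 signal relative to the 75th percentile (vertical axis) of steroid, cholesterol and hormone genes on the 4 NP15 arrays, 1 symbol per array. (S) marks saturated probes and (Z) a spot in the dark patch of replicate 4; CYP21A2 spreads from -3.00 to 0.39 while CYP11A1 stays between 6.26 and 6.52.

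Cholesterol supply was bright as a list, with 12 of 19 genes bright, 18 measured and a median of 2.83. The synthetic enzymes HMGCS1 (6.42, 6.36, 5.84 and 6.63), DHCR7 (5.33 ± 0.28), MVK (5.08 ± 0.28), FDPS (4.92 ± 0.39) and FDFT1 (4.12 ± 0.22) were all bright. APOE (5.68 ± 0.16), LRP1 (3.54 ± 0.04), NPC2 (2.12 ± 0.35) and NPC1 (0.59 ± 0.23), which carry or move cholesterol, were bright as well. SC5D, a late enzyme of the same pathway, was the dimmest measured member at -7.06 ± 0.49.

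Among 17 receptors of luteal hormones and growth factors, 4 were bright, 7 middle and 4 dim. PTGFR, which binds prostaglandin F2 alpha on luteal cells, was the brightest at 2.83, 2.33, 3.06 and 2.82. LHCGR, the luteinizing hormone receptor, gave -1.13, -0.63 and -0.17 on replicates 1 to 3 and -4.02 on replicate 4, where its spot lay in the patch. PRLR, the prolactin receptor, spread widely outside the patch, at -0.35, -2.94, -1.98 and 0.07. PGR, the nuclear progesterone receptor, was steady at -2.59, -2.40, -2.61 and -2.71. FSHR (-5.16 ± 0.74) and ESR2 (-6.15 ± 0.18), receptors of follicle stimulating hormone and estrogen, were dim, ESR1 was above background on 2 arrays, and OXTR, the oxytocin receptor, on none.

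Of 15 luteal peptides and growth factors, 8 were bright, 1 was middle and 4 were dim. OXT, the oxytocin precursor, gave 6.10, 6.53, 5.86 and 6.32 (mean 6.21 ± 0.29). IGFBP4 was bright at 3.02 ± 0.31, while IGFBP3, which binds the same growth factors, gave 0.23, 0.98, -1.74 and 0.10 and was lowest on replicate 3. FST, the activin binding protein follistatin, ordered replicates 1 to 3 alike on both of its probes: 3.75, 2.87 and 2.14 on the first, whose spot lay in the patch, and 1.44, 0.52 and -0.32 on the second. IGF1 was above background on 2 arrays only. Among 17 genes of the prostaglandin pathway 5 were bright, with PTGIS, the prostacyclin synthase, at 1.97, 3.55, 2.33 and 2.33, and PTGS2, the inducible cyclooxygenase, was dim at -4.76 ± 0.89.

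Of the 28 lists, oxidative phosphorylation and the ribosome had the largest shares of bright genes. Of 72 genes of oxidative phosphorylation, 71 were bright, with a median of 3.57, and the exception was UQCRQ at -1.91 ± 0.14. ATP5ME (5.84 ± 0.09), SDHA (5.74 ± 0.10), CYC1 (5.24 ± 0.13) and COX4I1 (5.13 ± 0.13), from ATP synthase and respiratory complexes, were examples. Of 64 cytosolic ribosomal genes, 55 were bright (median 5.0). RPL21 (-3.42), RPS3A (-3.69, in the patch), RPL6 (-4.39) and RPL28 (-5.34) were dim, and RPL13 was above background on 3 arrays. The median SD over replicates 1 to 3 was 0.10 for oxidative phosphorylation and 0.08 for the ribosome, against 0.17 over all measured genes.

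Antioxidant genes were bright in 19 of 23 cases (median 2.24). SOD2, the mitochondrial superoxide dismutase, led with 5.82, 5.22, 5.94 and 5.90, followed by PRDX1 (4.93 ± 0.15), GPX4 (4.10 ± 0.19), TXN (3.99 ± 0.10) and PRDX3 (3.95 ± 0.04). NQO1 was dim at -4.23 ± 0.24. Glycolytic genes were bright in 12 of 17 cases (median 1.60), with ALDOC (4.98 ± 0.22) and LDHB (4.54 ± 0.15) leading and the glucose transporter SLC2A3 dim at -6.82 ± 0.49. Among immediate early and heat shock genes 18 of 26 were bright, led by the chaperones HSPA8 (5.62 ± 0.16), HSP90AA1 (5.18 ± 0.62, in the patch), HSP90B1 (5.17 ± 0.11) and HSP90AB1 (4.93 ± 0.21). EGR1, an early response transcription factor, was dim at -5.62 ± 0.73.

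Of 26 PPAR and retinoid receptors and genes of lipid use, 12 were bright. SCD (5.80, 5.55, 5.44 and 4.25, with its spot in the last column of the array), FASN (4.57 ± 0.15), FABP3 (4.54 ± 0.66) and HADHA (4.26 ± 0.11), which make, carry or oxidise fatty acids, were the brightest. The receptors themselves were dimmer on their probes. PPARG gave -3.08 ± 0.30 with its spot in the patch, PPARA -7.14 ± 0.59 and RXRA -1.74 ± 0.17, and RXRG and UCP3 were at background. RARA (0.59 ± 0.24) and RARG (0.17 ± 0.14), receptors of retinoic acid, were bright.

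Endothelial genes were bright in 7 of 16 cases, with a median of -1.66 that lay below that of all measured genes. The brightest were EGFL7 (3.95 ± 0.28), ROBO4 (3.36 ± 0.25), ENG (2.44 ± 0.33) and CD34 (2.04 ± 0.30). The defining markers PECAM1 (-3.26 ± 0.15), CDH5 (-3.22 ± 0.21) and VWF (-5.03 ± 0.41) were read at middle or dim level. All 27 angiogenic and vasoactive genes were measured, 11 of them bright, with a median of -1.33. VEGFB gave 1.16 ± 0.12, VEGFA -0.58 ± 0.48 and the receptor KDR 0.40 ± 0.22, while ANGPT2 (-4.43 ± 0.16), EDN1 (-5.16 ± 0.66) and NOS2 (-7.27 ± 0.21) were dim.

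Fibroblast, pericyte and smooth muscle genes were bright in 9 of 12 cases (median 1.11). COL3A1 gave 5.28, 5.34, 4.90 and 5.54, and VIM (4.44 ± 0.37), DCN (4.34 ± 0.16) and RGS5 (3.64 ± 0.30) were bright. Matrix genes were bright in 9 of 19 cases, led by TIMP2, SPARC, SERPINE2 (5.68 ± 0.34) and BGN (4.44 ± 0.25). The proteases were dimmer, with MMP2 at -1.03 ± 0.32, MMP9 at -2.31 ± 0.22 and MMP1 at -6.02 ± 0.31. TNC, a matrix protein of remodelling tissue, varied more than its list, at -2.33, -3.56, -4.99 and -0.84.

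Markers of immune cells were mostly middle or dim. Myeloid genes were bright in 2 of 13 cases, C1QB (2.66 ± 0.44, in the patch) and CTSS (2.22 ± 0.63), while CD68 (-1.90 ± 0.21) and CD14 (-2.86 ± 0.43) were middle. No gene of T and natural killer cells was bright: CD8A (-2.56 ± 0.97) and CD3E (-2.69 ± 0.96) were middle, 9 of 16 were dim, CD4 was above background on 3 arrays and CD28 on none. Of 7 genes of B and plasma cells, CD79A, IGHM and JCHAIN were middle. Of 7 genes of red cells and platelets, 3 were middle (ALAS2, EPOR and ITGA2B), HBA was above background on 3 arrays and HBB on none. These lists cover cell types that whole luteal tissue can hold, and their part in the values of other genes was not tested.

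Antigen presentation was brighter than the immune cell lists, with 10 of 17 genes bright and a median of 2.04. CALR (5.76 ± 0.18), B2M (4.81 ± 0.07, in the patch) and PSMB9 (3.95 ± 0.25) led beside the class I probe. Complement and coagulation genes were bright in 8 of 21 cases, with CLU at 4.43 ± 0.46, and C3 was dim at -7.26 ± 0.19. All 17 genes of the interferon response were measured, 5 of them bright, including LGALS3BP (5.34 ± 0.32), IRF9 (1.40 ± 0.28) and ISG15 (0.15, 0.13, 0.44 and 1.65). Of 27 chemokines, cytokines and receptors 6 were bright, with CXCL12 steadiest at 2.12, 1.96, 2.10 and 2.15, and 11 were dim, among them IL1B (-5.11 ± 0.52) and CXCL8.

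Markers of the follicle were partly present. FOXL2, a transcription factor of granulosa cells, was bright at 2.06, 2.48, 2.55 and 2.49, INHBA gave 1.58 ± 0.64, and INSL3 is described below among the variable genes. AMH was middle at -1.53 ± 0.16, the oocyte gene NLRP5 was dim at -4.20 ± 0.13, and the oocyte gene BMP15, AMHR2 and DDX4 (its spot in the patch) were at background. Of 13 trophoblast genes none was bright or middle, CDX2 was dim at -7.04 ± 0.39, and 6 were at background: CSH2, PAG2, PAG11, PRP4, TKDP1 (in the patch) and TKDP2. Of 30 genes of adrenal, liver, muscle and nerve, 3 were bright, 3 middle and 13 dim, and APOB, CKM, MYH1, NEFL and SERPINA1 were at background. The bright ones were TH, the first enzyme of catecholamine synthesis, at 2.72, 2.77, 2.60 and 3.07, TF, the iron carrier transferrin, at 5.51, 4.56, 4.85 and, in the patch, 0.59, and FGG, a fibrinogen chain.

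**Figure D3:**
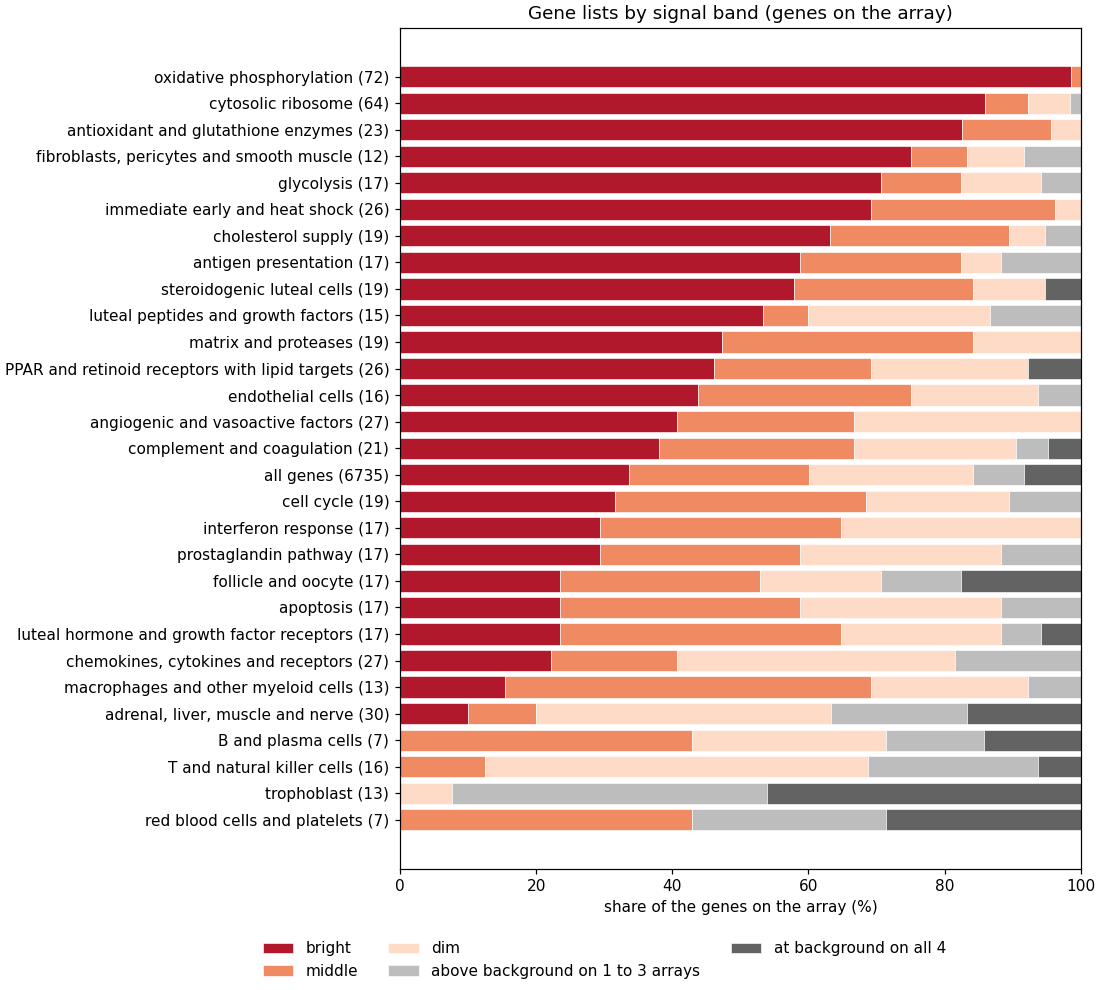
Share of each list's genes on the array (number in brackets) that was bright, middle, dim, above background on 1 to 3 arrays, or at background on all 4 NP15 arrays, sorted by the share that was bright. Oxidative phosphorylation, with 71 of 72 genes bright, stands at the top, all 6735 genes at 33.7% near the middle, and lymphocyte, trophoblast and red cell genes, with none bright, at the bottom.

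Cell division and cell death genes lay near the array's middle. Cell cycle genes were bright in 6 of 19 cases, led by CCND3 (3.80 ± 0.27), a cyclin of the first growth phase, while the mitotic genes CDK1 (-3.97 ± 0.61), CCNA2 (-4.02 ± 0.66) and AURKA (-4.88 ± 0.65) were dim. Apoptosis genes were bright in 4 of 17 cases, with BAX at -1.73 ± 0.28 and BCL2 at -2.22 ± 0.40. Genes nearest the median of all measured genes included UBQLN1, PAN2, PRIM2, DNAJA2, VRK1, POP4, ATP6V1B2, RASL10B and EEIG1.

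Differences between the cows were small for most genes. The median SD over replicates 1 to 3 was 0.13 in the bright band, 0.17 in the middle and 0.22 in the dim, and it was 0.21, 0.26 and 0.30 over all 4 arrays. For comparison, 50 sequences printed on several spots had a median SD of 0.09 between spots of one array. It was taken per sequence and array, over all 4 arrays. Their 181 spots had a median SD of 0.055 over replicates 1 to 3, taken per spot. Of these spots 82 were the repeated GAPDH sequence, so these medians weight the sequences differently and cannot be set against each other. An SD over 1 among replicates 1 to 3 was seen for 18 bright (0.455%), 48 middle (1.21%) and 65 dim (1.64%) probes. The steadiest bright genes over those 3 arrays were RPL10A (5.04 on each, 4.90 on replicate 4), VDAC2 (3.18, 3.18, 3.19 and 3.59) and TMEM219 (1.84, 1.84, 1.83 and 2.27).

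Some functions moved together from cow to cow, as seen in the median deviation of a list's measured genes outside the patch from their mean over the 4 arrays, after each array's own median was taken off. Cell cycle genes deviated most, by -0.24, 0.52, -0.37 and 0.06 on replicates 1 to 4, and 13 of 15 were highest on replicate 2, against 1370 of 4939 genes in all. RRM2, the small subunit of ribonucleotide reductase, was an example at -2.33, -1.06, -3.24 and -1.68, and CCNB2, a mitotic cyclin, another at -2.81, -1.58, -3.03 and -2.16.

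Immune lists were highest on replicate 4, and so were several lists of other kinds. Myeloid genes deviated by -0.20, -0.28, 0.02 and 0.37, with 9 of 10 highest on replicate 4, against 1629 of 4939 genes in all. Chemokines and cytokines gave -0.14, -0.35, 0.06 and 0.43 (14 of 18 highest on replicate 4), and T and natural killer genes -0.24, -0.30, 0.23 and 0.25 (7 of 11). Of those 11 T and natural killer genes, 10 lay above their mean on replicate 3 and 8 on replicate 4. Of the 4939 genes in all, 2298 did so on replicate 3 and 2666 on replicate 4. CCL8, a monocyte attracting chemokine, was an example at -3.08, -2.14, -0.99 and 0.01, and CCL2, another, gave -0.06, -0.10, 1.28 and 1.69. Cholesterol supply gave -0.01, -0.06, -0.06 and 0.22, with 12 of 17 genes highest on replicate 4. Luteal peptides and growth factors reached 0.29 there, endothelial genes 0.21 (9 of 14 highest) and matrix genes 0.17 (9 of 14). The steroidogenic list was instead highest on replicate 3, at 0.13. Oxidative phosphorylation stayed between -0.04 and 0.08 and the ribosome between -0.09 and 0.08, small shifts in which 36 of 63 and 29 of 51 genes were nonetheless highest on replicate 2. With 4 cows, and with replicate 4 the array that carried the defect, the part of the array in these shifts was not tested.

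**Figure D4:**
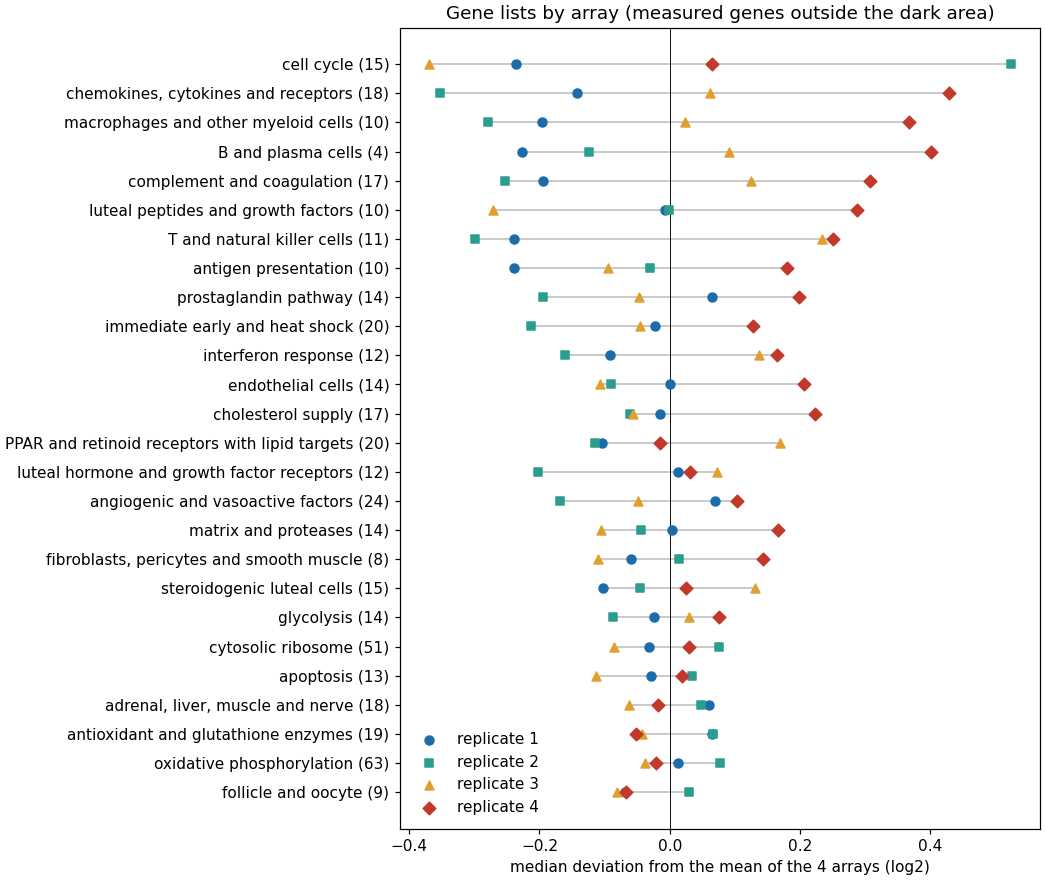
Median deviation (log2) of each gene list on each NP15 array from the genes' mean over the 4 arrays, for measured genes outside the dark patch (number in brackets), sorted by range. Cell cycle genes reach 0.52 on replicate 2, and chemokine and myeloid genes 0.43 and 0.37 on replicate 4, while oxidative phosphorylation stays near 0.

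Among bright genes, the largest differences outside the patch came from a mixed set. CALB2, a calcium binding protein, split the cows into pairs at -0.20, -0.18, 2.24 and 2.36. PLIN2, which coats lipid droplets, did so in the same way at 2.14, 2.51, 4.20 and 4.16. SAA3, an acute phase protein in the middle band, gave -4.09, -3.96, -1.64 and -1.46, again with replicates 3 and 4 above replicates 1 and 2. FGG gave 1.36, -1.66, 0.02 and 0.47. PTGR1, which reduces prostaglandins and leukotrienes, gave 1.88, 1.11, -0.89 and 1.06 and was low on replicate 3. The carbonic anhydrases CA2 (1.99, -0.02, -0.48 and -0.14) and CA4 (1.35, -0.36, -1.20 and 1.03) were both highest on replicate 1. ANG, the ribonuclease angiogenin, was low on replicate 2 alone at 2.29, 0.72, 2.42 and 2.34, and IFI30, a lysosomal thiol reductase, was low on replicate 1 at 0.81, 2.61, 2.22 and 1.66.

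INSL3, a relaxin-like peptide of steroidogenic cells, gave 4.96, 6.12 and 4.29 on replicates 1 to 3, an SD of 0.93, and 1.09 on replicate 4, where its spot lay in the patch. VCAM1, an adhesion molecule with its spot in the patch too, gave 0.99, 3.10 and 2.36 on those arrays, an SD of 1.07. Both genes therefore varied among the arrays that had no dark patch.

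In the middle and dim bands the largest spread was that of NGEF, a guanine nucleotide exchange factor, at 0.14, -4.90, 0.46 and 1.46, with replicate 2 far below the others. NPTX2, a secreted pentraxin, gave -0.27, -1.13, -4.97 and -3.89, and XCL1, a chemokine of T cells, -0.17, 0.92, -3.00 and -0.89. CLDN11, a tight junction protein, gave -5.17, -2.57, -1.64 and -3.77. The dim genes SFRP2, LHX9, DOK6, GABRA2 and DBIL5 outside the patch, and GATA5 and LY6D in it, completed this set. For 5 genes with 2 unsaturated probes outside the patch, at least 1 of them varying by an SD over 0.5, 3 kept the order of replicates 1 to 3 on both probes. The class I histocompatibility probes described below, 1 of them saturated on 1 array, are not in this count and did not keep it. APLN, the vascular peptide apelin, kept it at 0.57, 1.30, 0.10 and 1.04 on one probe and -6.07, -5.69, -6.25 and -5.64 on the other.

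Several of the most variable genes belonged to the major histocompatibility complex, a dense stretch of immune genes known for its many alleles. BOLA-DQA5 and BOLA-DQB, which encode class II chains that present peptides to T helper cells, were well above background on some arrays and not on others, and were singled out after their values were seen. Probes were not aligned to a genome here, so whether one also reads a related BOLA gene, or fails to read some alleles, was not tested. BOLA-DQA5 gave 0.20 on replicate 2 and was not well above background on the other 3, at least 187-fold lower. BOLA-DQB gave -0.35 on replicate 2 and -6.77 on replicate 4, and was not well above background on replicates 1 and 3, at least 179-fold below replicate 2. Class II probes of similar name, BOLA-DQB1 and BOLA-DQA2, were well above background on all 4 arrays. BOLA-DQB1 was bright at 1.49, 1.98, 1.31 and 1.11, and BOLA-DQA2 gave -2.51, -3.90, -2.35 and -0.93, lowest on replicate 2. Each fold bound sets the brightest array against the higher of the dim probe's own value and the lowest value well above background. Of 398 named probes outside the patch that were above background on 1 to 3 arrays, 8 differed by at least 8-fold in this way. The others were ASIP, the agouti coat colour signal (at least 64.0-fold on replicate 2 over replicate 1), PNOC, LMO1, RDH12, SEMA3E and HOXA5.

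Other genes of that stretch varied while being measured on every array. C4A, complement component 4, gave 4.23, 6.33, 5.61 and 4.94. BOLA-DRB2, a class II gene, gave -6.85, -7.49, -3.74 and -6.45, and MIC1, related to class I, -3.51, -6.23, -4.03 and -6.99. JSP.1, a class I gene with its spot in the patch, gave -4.80, -1.71, -5.03 and -0.27. Class I probes ABR7205 (6.30, 5.67, 5.07 and 6.67) and A_73_115812 (6.64, 5.29, 6.69 and 7.83, the last saturated) did not order the cows alike. The class II gene BOLA-DRB3 was by contrast close on replicates 1 to 3 at 2.61, 2.41 and 2.24, with 3.73 on replicate 4.

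Along the RefSeq gene order from BOLA-DQB to POLR1H in the assembly ARS-UCD2.0, a range chosen after the values were seen, 56 genes were on the array and 49 were measured without saturation. Of these 49 genes 5 (10.2%) had an SD over 1 among replicates 1 to 3, namely C4A, CYP21A2, MIC1, JSP.1 and BOLA-DRB2, against 60 of 5660 genes (1.06%) in all. Most of the stretch was not unusual, since its median SD was 0.19 against 0.17. POLR1H (-1.62, -1.46, -1.51 and 1.29), a subunit of RNA polymerase I, and TRIM10 (-6.94, -6.73, -6.23 and -3.73) lay in it too and stood high on replicate 4 only.

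**Figure D5:**
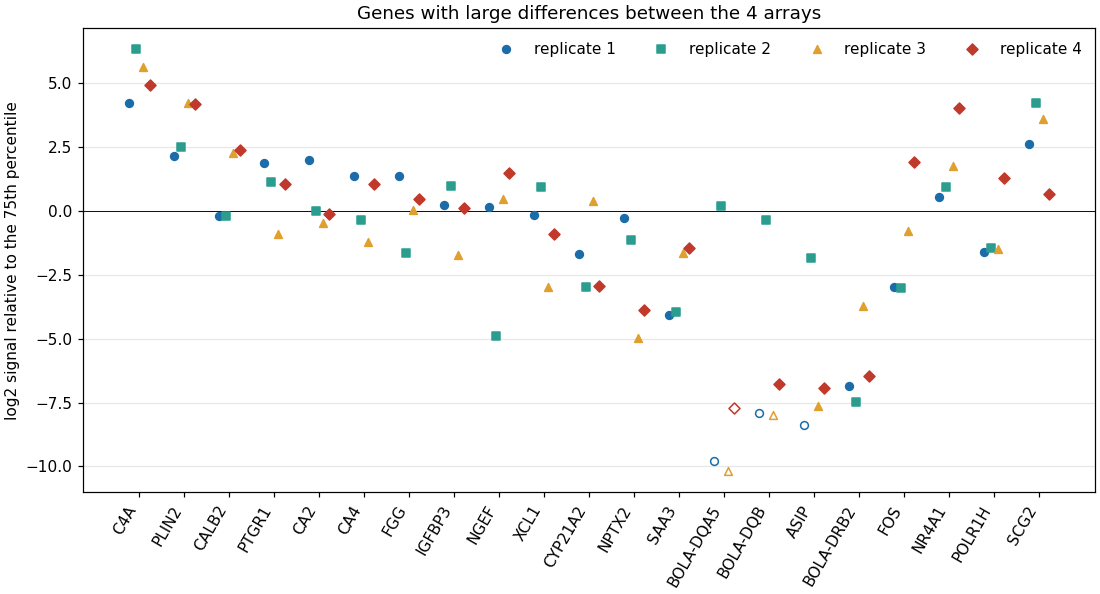
Log2 signal relative to the 75th percentile (vertical axis) of genes with large differences between the 4 NP15 arrays, none with its spot in the dark patch, with filled symbols for spots well above background and open symbols for spots that were not. BOLA-DQA5 and BOLA-DQB lie near 0 on replicate 2 and below -6.5 on the others, and FOS, NR4A1 and POLR1H are highest on replicate 4.

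The 10 genes most raised on replicate 4 were of mixed kinds, and the median deviation of the immediate early and heat shock list there was 0.13. FOS, an early response transcription factor, gave -2.99, -3.03, -0.79 and 1.90. NR4A1, an inducible orphan nuclear receptor, gave 0.54, 0.95, 1.77 and 4.02. APOLD1, an early response gene of endothelial cells, gave -1.50, -1.09, -0.35 and 2.87. In all 3 genes replicate 3 was the next highest. CXCL3, a neutrophil attracting chemokine, gave -1.08, -0.37, 0.62 and 2.81, SELE, an adhesion molecule of activated endothelium, -6.11, -7.37, -7.22 and -3.90, and RDH8, a retinol dehydrogenase, -7.04, -7.53, -7.47 and -3.79. NGEF, TRIM10, POLR1H and JSP.1 completed the 10 genes most raised on replicate 4 over the mean of the other arrays. For NGEF that mean was pulled down by replicate 2 (-4.90), while replicates 1, 3 and 4 gave 0.14, 0.46 and 1.46.

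All 10 genes most lowered on replicate 4 had their spots in the patch, among them EBNA1BP2 (2.43, 2.20, 2.54 and -2.21) and RBM39 (2.17, 2.44, 2.29 and -2.55). Of the 10 most lowered outside the patch, 6 (TARS1, UBE2T, PLAU, FLT3LG, MAP3K14 and ANK2) lay in the dark strip at the right edge. TARS1, the threonyl-tRNA synthetase, was an example at 0.07, 0.25, 0.30 and -2.23. The 4 that lay in neither area were SCG2, MIC1, CCL14 and FABP2. SCG2, a protein of secretory granules, gave 2.63, 4.22, 3.58 and 0.65, and CCL14, a chemokine, gave -0.07, -0.76, -0.76 and -2.88.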

How the data were processed

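The deposited scanner files contain each spot's intensity, linear and not logged. The slides were read in Agilent Feature Extraction, whose version is 9.5.1.1 in the file headers and 9.5 in the submitters' processing notes. Per the labels' protocols, 400 ng of total RNA per cow was amplified and labelled with Cy3. The deposited value table holds log2 values, and each of its NP15 columns equalled the logged processed signal less 1 constant for each array, to within 1.72e-06. That constant differed from the 75th percentile by -0.0076 to -0.0142, and the column medians were -2.99, -3.05, -3.00 and -3.01. This settles the table's scale and direction. The sources used here do not state why the constant differs slightly.

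From the scanner files, log2 of the processed signal minus the 75th percentile over the 15208 probes other than the 536 control spots was computed in Python 3.11.15 with numpy 2.4.6 and pandas 2.3.3. At most 9 marked spots per array (non-uniform or population outliers) were set to missing. The dark patch is the largest connected area of spots whose window of 11 rows by 7 columns had a median deviation below -0.5 from the other arrays. Its steps were run on simulated arrays whose dark oval had a sharp edge and an even depth. The real patch was graded, with a deepest local median of -4.33, so the placing of its rim was not tested. The number of arrays, 4, limits the precision of every value.

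Gene names came from each probe's accession (2514 probes), gene number (2013), symbol (1290), older symbol (292) or description (1019), looked up in RefSeq's table of the assembly ARS-UCD2.0. No name was found for 8073 probes, 7 were left unnamed because their symbols or description pointed to different genes, and the names BoLA and BOLA were taken as one gene. Named genes were the 25 brightest, the 10 nearest the median, up to 5 bright and 4 background members per list, the most variable (12 bright, and 8 in each other band) and steadiest in each band, the 10 most raised or lowered on replicate 4, the genes of the study's title, and the tissue markers. Other members of the lists were named as examples after their values were seen. Of the 246 genes that these rules name, 78 are not reported here. The samples and the 28 gene lists were chosen with earlier results of these data known. Alternatives were quantile and normexp normalization (limma 3.58.1, R 4.3.3), the deposited values, 3 of 4 arrays, marked spots kept, a local position adjustment, the first and last 24 rows left out, the mean of a gene's probes, the patch left out (added after the data were seen), and each cow left out.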

Additional observations from a re-analysis of the deposited data

Results flagged for a closer look

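Of the 246 genes named in the text, 24 had 1 cow standing far from the other 3, as had 2 of 26 gene lists; a cow was counted as far when its gap to the nearest other took more of the whole range than Dixon's critical value for 4 samples. Among the 246 genes that the naming rules give, in the text or not, 52 had such a gap. Chance alone gives one in about 1 in 20 groups, but many of these genes were chosen because replicate 4 stood apart or because the other arrays lay close together, so the counts cannot be read against that rate. The share of the range taken by the gap follows each gene, and no reason for any gap was tested. That share does not give the size of a gap on the log2 scale.

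Replicate 4 stood high in TSPO (0.912), GNAS (0.942), RPLP2 (0.858), HSP90AB1 (0.837), POLR1H (0.945), CXCL8 (0.964) and RDH8 (0.868). Gene values were not centred on each array's median here. Measured probes outside the patch were higher on replicate 4 by a median of 0.21, and the part of this shift in the gaps was not tested. CXCL8, a neutrophil attracting chemokine, gave -5.53, -5.52, -5.43 and -2.90, so the cow of replicate 4 alone was raised. The median deviation of the cholesterol supply list (0.836) was also high on replicate 4. VDAC2 (0.979), TMEM219 (0.98) and, low on replicate 4, RPL10A (0.976) had been named for agreeing closely on the other 3 arrays, so a wide gap was built into that choice.

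Replicate 4 stood low in HSP90AA1 (0.956), EBNA1BP2 (0.929), RBM39 (0.945) and RPL7A (0.840), whose spots lay in the dark patch. It was low too in TARS1 (0.912), UBE2T (0.924), FLT3LG (0.919) and MAP3K14 (0.859), whose spots lay in the dark strip at the right edge.

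The remaining gaps belonged to other cows. Replicate 2 was high in BOLA-DQB (0.842), in the mitotic kinase AURKA (0.891) and in the primase subunit PRIM2 (0.847), and low in ANG (0.927). The median deviation of the follicle and oocyte list (0.870) was highest on that replicate too. It was small, at -0.07, 0.03, -0.08 and -0.07 on replicates 1 to 4 over 9 genes. Replicate 1 was low in FOXL2 (0.855), and replicate 3 was high in RARG (0.887).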

How the results depend on the processing

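The count of measured probes was 11896 and lay between 8891 (first and last 24 rows left out, which removes spots) and 12568 (above background on 3 of 4 arrays), and between 11916 and 12444 with 1 cow left out. With the patch left out it was 12119. The median SD was 0.255 over 4 arrays, 0.216 with normexp, 0.198 with the local position adjustment, 0.205 with the patch left out, and 0.171 to 0.266 with 1 cow left out, the lowest value without replicate 4. Bright list members numbered 303, or 239 without the edge rows and 300 to 306 otherwise; leaving out a cow gave 302 to 304. Without the edge rows, bright steroidogenic genes fell from 11 to 7 and antioxidant genes from 19 to 12, since fewer probes were read. Of the 246 genes named by the rule, 240 kept their band with the patch left out, 242 at 3 of 4 arrays, 203 of the 205 left without the edge rows, 245 with normexp or with the mean of a gene's probes, and 234 to 241 with 1 cow left out. The value moved by more than its SD for 32 of them with normexp, 9 with the mean of a gene's probes, 4 without the edge rows and 1 with the patch left out. No paired analysis was possible because only 1 group was described and nothing was tested between groups. Saturated probes give only a lower bound, and probes near background vary more, as the SDs of the dim band show.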
